A study of Sus scrofa with 3 samples.

Results

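The genes of the major histocompatibility complex (MHC) class II presentation system, with the transcription factor RFX5, were examined in PIE cells, a non-transformed line described by the submitters as coming from the gut lining of an unsuckled newborn pig. The members were chosen by name on the array: SLA-DQA, SLA-DQB1, SLA-DRA, SLA-DRB1, SLA-DMA, SLA-DMB, SLA-DOA, SLA-DOB, CD74 and RFX5, where SLA stands for swine leukocyte antigen. Of these 10 genes, 9 had a probe, with 36 probes among the 43603 on the array, which name 5537 genes in all. Every culture was grown for 3 days and ended with 12 h of ETEC PAMPs, preparations of enterotoxigenic Escherichia coli that carry its pathogen-associated molecular patterns. The TL2937+ETEC culture had first been kept for 48 h with Lactobacillus jensenii TL2937 and washed, the TL2766+ETEC culture likewise with Lactobacillus plantarum TL2766, and the ETEC culture had no bacteria before the challenge. Each group had 1 culture on 1 array, so no difference below has a test, a p-value or a spread between cultures, and the number of arrays limits the precision. Unchallenged cells were not analysed here, so no level is set against a resting state.

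MHC class II molecules are pairs of an alpha and a beta chain that carry peptides from the endosomes to the cell surface, where CD4+ T cells read them. Their invariant chain, CD74, holds the groove closed until the endosome, where DM takes out its last fragment and loads peptides and DO holds DM back. The genes share a promoter module that the RFX complex, of which RFX5 is a subunit, binds together with NF-Y and CREB, and their output follows the coactivator CIITA, which interferon gamma induces. Some epithelial cells make class II molecules when inflamed.

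Several probes of the same gene differ by single bases or disagree with one another, and their sequences are shown for that reason. Each probe has 60 bases and is given as the array file lists it, 5′ to 3′, with the number at which the file places its start in the target transcript. The SLA-DQA probes at 277 and 1110 are named SLA-DQA1 on the array. Each has a target transcript of its own, so its start is not numbered as in the other SLA-DQA probes. In both SLA-DQA pairs, capitals mark the bases that differ where the partners overlap: 5 of 59 bases in the upstream pair and 3 of 56 in the downstream pair.
SLA-DQA, start 277: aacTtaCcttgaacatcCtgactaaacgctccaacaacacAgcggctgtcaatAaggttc
SLA-DQA, start 310: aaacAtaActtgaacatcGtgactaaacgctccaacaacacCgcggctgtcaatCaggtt
SLA-DQA, start 1068: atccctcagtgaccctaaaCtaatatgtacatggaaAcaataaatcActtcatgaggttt
SLA-DQA, start 1110: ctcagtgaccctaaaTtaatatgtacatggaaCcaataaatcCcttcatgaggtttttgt

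The RFX5 probes lie far apart in 1 transcript. Capitals in the probe at 1217 mark a run of 4 copies of CCNGGA, and 3 or more such copies in a row, searched on both strands, were found in 1 of 43603 probes on the array (0.00229%), which is this one.
RFX5, start 383: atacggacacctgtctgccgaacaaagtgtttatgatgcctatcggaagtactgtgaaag
RFX5, start 1217: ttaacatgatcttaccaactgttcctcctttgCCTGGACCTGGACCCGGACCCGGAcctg
RFX5, start 1774: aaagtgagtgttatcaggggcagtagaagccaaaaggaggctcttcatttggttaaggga

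The brightest SLA-DRA probe, the SLA-DRB1 pair that shares 38 identical bases and the SLA-DMB pair carry further results below.
SLA-DRA, start 1158: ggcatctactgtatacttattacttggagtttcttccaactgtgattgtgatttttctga
SLA-DRB1, start 608: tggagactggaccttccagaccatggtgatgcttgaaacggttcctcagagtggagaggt
SLA-DRB1, start 630: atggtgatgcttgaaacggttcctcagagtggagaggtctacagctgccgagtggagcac
SLA-DMB, start 429: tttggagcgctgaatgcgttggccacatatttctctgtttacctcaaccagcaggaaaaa
SLA-DMB, start 1224: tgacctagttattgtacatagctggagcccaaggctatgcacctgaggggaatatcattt
No member probe shared a run of 25 bases with a probe of another name.

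Levels are scaled intensities: the processed brightness of a spot, brought to a common 75th percentile on the 3 arrays. Differences are on the log2 scale, and a gene is represented by its brightest probe. A probe was measured in a comparison where the scanner software flagged it as well above background on both arrays, and it was called lower or higher past 1.2-fold, a small step taken because few class II differences reached 2-fold. The 75th percentile was 503 on the TL2937+ETEC array, 481 on the TL2766+ETEC array and 459 on the ETEC array, and the share of spots well above background was between 60.9% and 62.5%. The spread among repeat spots was read from 25 probes that the array carries 5 times: the standard deviation of their log2 difference between arrays had a median of 0.087, 0.078 and 0.084 in the 3 comparisons and reached 0.52. Each class II probe had 1 spot, for which the software's own error model gave a median error of 0.21 for a log2 difference. Both figures cover the array alone, not the cultures.

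The labelled cell type was checked against marker genes. Of 8 epithelial markers, 7 had a probe, only KRT8 and CLDN7 were well above background on all 3 arrays, and EPCAM, KRT18 and CLDN4 were on none, while CDH1 and VIL1 were on 2 of 3. EPCAM, the epithelial adhesion molecule, was at 13.7, 12.8 and 13.3 on the TL2937+ETEC, TL2766+ETEC and ETEC arrays and not above background with any of its 18 probes. The summed level of the epithelial list was 95.4, 94.1 and 102 on the same arrays. Of 5 endothelial markers, 4 were above background on all arrays, with PECAM1 at 84031, 85367 and 86702 and the endothelial cadherin CDH5 at 56584, 55877 and 60380, and the list summed to 143848, 144199 and 148976. All 4 mesenchymal markers with a probe were above background, with a sum of 44168, 49673 and 56324 that is nearly all ACTA2, smooth muscle actin. Of 12 leukocyte markers, 6 had a probe and PTPRC, the pan-leukocyte CD45, was not above background on any array, while the list summed to 769, 794 and 677, most of it CD14. The defining markers EPCAM and KRT18, the second with a single probe, were thus not well above background. Other epithelial markers were dim, and the cells are called PIE cells throughout. The epithelial, endothelial and mesenchymal sums were lower on the TL2937+ETEC array than on the ETEC array, and the leukocyte sum was higher. Class II levels, given below, were mostly lower there, and the part of the cell makeup in them was not tested. In bulk RNA, fewer cells of a kind and less RNA per cell cannot be told apart.

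Class II levels were lower in the TL2937+ETEC culture than in the ETEC culture for most members. Of 8 genes measured in that comparison, 5 were at least 1.2-fold lower, 0 were higher and 3 were within 1.2-fold, against 12.6% of 4247 genes lower and 7.21% higher. The 5 were SLA-DQA, SLA-DQB1, SLA-DRA, SLA-DMA and SLA-DMB, and the 3 within 1.2-fold were SLA-DRB1, CD74 and RFX5. The median of the 8 log2 differences was -0.53, where the median of all genes was -0.04. No brightest probe of a member was 2-fold lower in any of the 3 comparisons, as 0.118% of all genes were in this one. At least 1.5-fold lower were 2 genes, SLA-DQA and SLA-DMA, and no share of all genes was taken at 1.5-fold. In the TL2766+ETEC culture the shift was smaller: 3 of 8 (SLA-DQA, SLA-DMA and SLA-DMB) were lower than in the ETEC culture, 1 (RFX5) was higher and 4 were within 1.2-fold, against 8.9% of 4223 genes lower and 8.03% higher, with a median of -0.16 beside -0.00 for all genes. At 2-fold, 0.213% of all genes were lower there and 0 members. The direct comparison of TL2937+ETEC with TL2766+ETEC had 6 of 8 lower, namely the 5 genes above and RFX5, and 0 higher. Of 4258 genes, 7.28% were lower and 4.32% higher there. The median was -0.29 beside -0.04 for all genes, of which 0.211% and 0 members were 2-fold lower. RFX5 was counted by its brightest probe, though its probe at 1774 was at 0.48 in that comparison. The comparisons with ETEC share the ETEC array, and each pair of comparisons shares 1 array, so they are given side by side and not as support for each other.

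**Figure D1:**
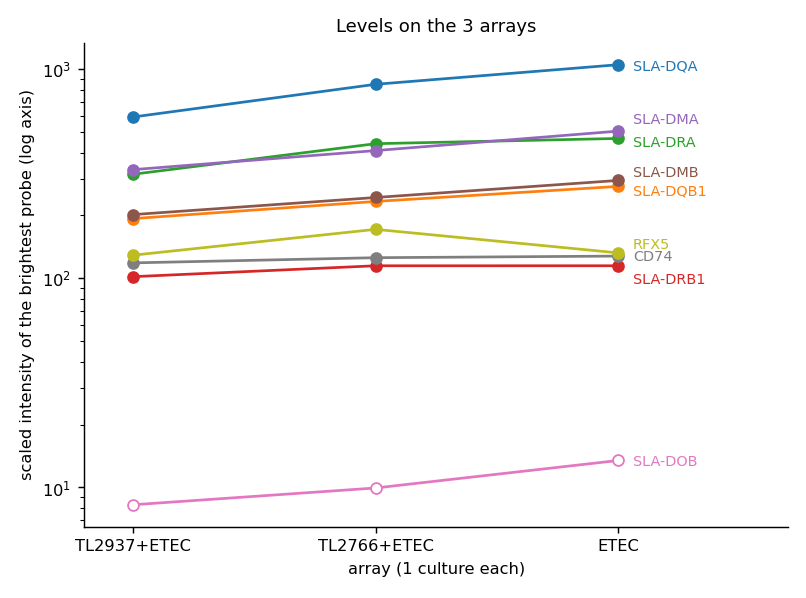
Scaled intensity (log axis) of the brightest probe of each gene on the TL2937+ETEC, TL2766+ETEC and ETEC arrays, 1 culture each. SLA-DQA stands at 592, 848 and 1053, SLA-DOB (open points) is not above background, and heights of different genes come from different probes and are not comparable.

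Over single probes the same comparison of TL2937+ETEC with ETEC gave 24 lower, 1 higher and 5 within 1.2-fold of 30 measured. Of 25803 probes in all, 12.3% were lower and 12.2% higher. SLA-DQA and SLA-DRA each gave 7 of the 24. Probes of the same gene are repeat readings on the same arrays, so the counts of member probes are not counts of separate observations. The median over the member probes was -0.52 and that of all probes was -0.01. Of the 30 probes, 29 were below 0, against 53.0% of all probes, and the exception was an RFX5 probe. In TL2766+ETEC against ETEC, 11 of 32 measured probes were lower, 2 were higher and 19 were within 1.2-fold, against 10.6% of 25617 probes lower and 9.79% higher. In TL2937+ETEC against TL2766+ETEC, 23 of 30 were lower and 1 was higher, against 7.38% of 25975 probes lower and 9.05% higher. Past 2-fold, 1 member probe was lower in each comparison, against 0.302%, 0.344% and 0.243% of all probes. The scanner's error for a difference was exceeded by 26 of 30 probes in the first comparison, by 16 of 32 in the second and by 23 of 30 in the third, where 30.3%, 25.2% and 20.0% of all single-spot probes exceeded it. More than 2 such errors separated 20, 2 and 15 member probes in the same comparisons, against 8.12%, 6.12% and 4.01% of all such probes, so the count of 2 in 32 for TL2766+ETEC against ETEC was near the share of all probes.

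**Figure D2:**
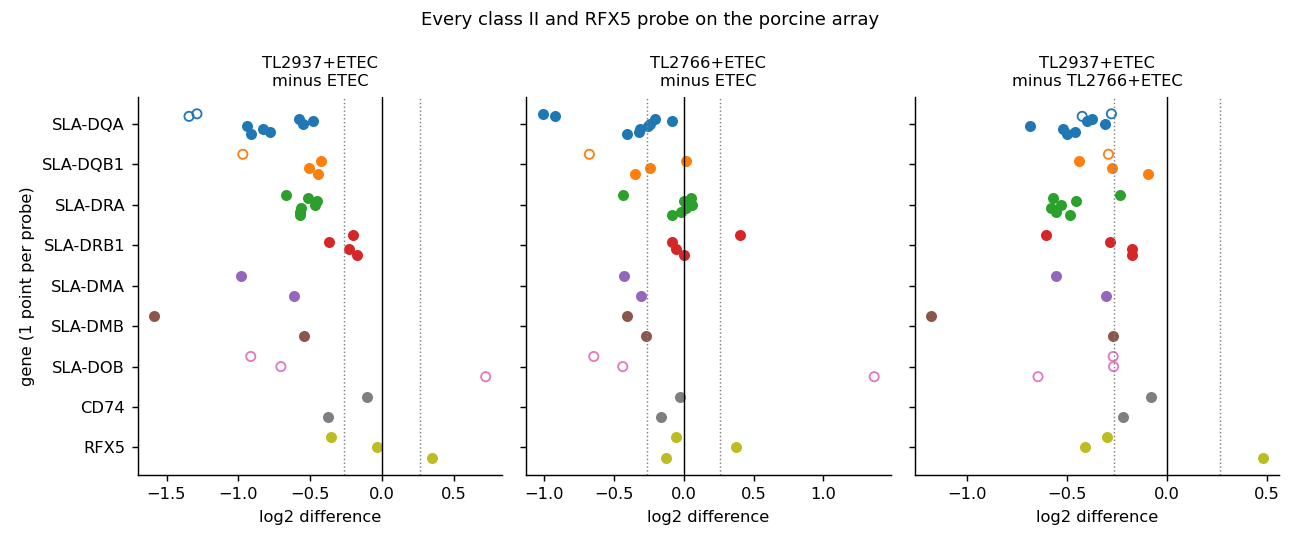
Log2 difference of every member probe, 1 point per probe and 1 row per gene, in the 3 comparisons. Filled points were well above background on both arrays, open points were not, and dotted lines mark 1.2-fold. In the left panel 29 of the 30 filled points lie below 0, where 53.0% of all measured probes did. The DR points of the middle panel lie around 0 while the DM points lie below it.

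Dim probes vary more, so the member probes were set beside all probes of like brightness. Bright probes were those with a mean log2 level over -1 relative to the 75th percentile. All 9 bright member probes were lower in TL2937+ETEC than in ETEC, against 8.55% of 13698 probes. Their differences lay between -0.94 and -0.47. They belonged to SLA-DQA, SLA-DRA, SLA-DMA and SLA-DMB alone, so several were repeat readings of the same gene. In the middle band, between -3 and -1, 10 of 14 were lower, against 10.1%, and in the dim band 5 of 7 were lower, against 23.1%. For TL2766+ETEC against ETEC the counts were 4 of 9 bright (4.94% of all bright probes), 2 of 14 middle (9.51%) and 5 of 9 dim member probes (24.7%).

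**Figure D3:**
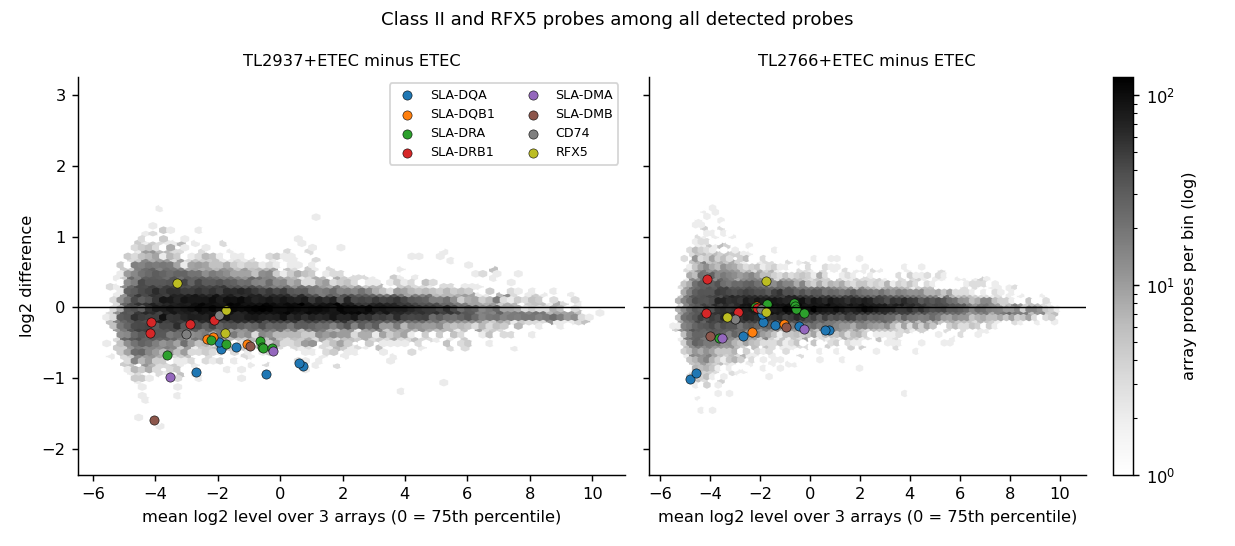
Log2 difference against mean log2 level over the 3 arrays for all probes well above background on both arrays (grey bins, darker for more probes on a log scale) and for the member probes (coloured points). On the left the 9 bright member probes lie between -0.94 and -0.47, below most of the grey cloud, and on the right the SLA-DRA points at the same level lie within it.

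SLA-DQA encodes the alpha chain of DQ, 1 of the classical presenting molecules, and had the widest gap of the brightest probes between TL2937+ETEC and ETEC. Its probe at 1012 read 592 in TL2937+ETEC, 848 in TL2766+ETEC and 1053 in ETEC, a log2 difference of -0.83 (1.78-fold lower) for TL2937+ETEC and -0.31 (1.24-fold lower) for TL2766+ETEC relative to ETEC, and -0.52 for TL2937+ETEC relative to TL2766+ETEC. All 7 probes above background on every array were lower in TL2937+ETEC, by -0.48 to -0.94, and the 9 probes measured in TL2766+ETEC were below 0, by -0.09 to -1.01. The downstream pair printed above differed in brightness: the probe at 1068 read 549, 756 and 945 on the TL2937+ETEC, TL2766+ETEC and ETEC arrays, and the probe at 1110 read 54.0, 76.3 and 101. Their differences were nevertheless close, at -0.78 and -0.91 for TL2937+ETEC and -0.32 and -0.41 for TL2766+ETEC against ETEC. The upstream pair was dim. The probe at 277 read 12.1, 14.7 and 29.5 and the probe at 310 read 13.5, 18.2 and 34.4. Neither was above background in TL2937+ETEC, where on the processed signal they read 2.44-fold and 2.54-fold lower than in ETEC. In TL2766+ETEC their log2 differences from ETEC were -1.01 and -0.92. These sizes depend on the background, and the readings set no lower limit for the gap. With the normexp correction, whose offset of 50 draws dim signals together, the differences were -0.30 and -0.26 for TL2937+ETEC and -0.19 and -0.26 for TL2766+ETEC. The 3 probes that start between 503 and 555 gave the smallest differences of the gene, at -0.58, -0.48 and -0.55 in TL2937+ETEC and -0.21, -0.09 and -0.24 in TL2766+ETEC, and neighbours among them overlap in sequence.

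SLA-DQB1, the beta chain of DQ, followed the same order on the arrays. Its brightest probe, at 1061, read 193 in TL2937+ETEC, 233 in TL2766+ETEC and 276 in ETEC. The log2 differences from ETEC were -0.51 for TL2937+ETEC and -0.24 for TL2766+ETEC. The 3 measured probes were close to one another in TL2937+ETEC (-0.42 to -0.51) and less so in TL2766+ETEC (-0.35 to 0.02). A probe at 13, near the transcript's start, was above background on no array. Over both DQ chains, 10 of 10 measured probes were lower in TL2937+ETEC and 6 of 12 in TL2766+ETEC. Of all probes, 12.3% and 10.6% were lower in the same comparisons. The 6 include the dim SLA-DQA probes at 277 and 310.

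SLA-DRA, the alpha chain of DR, differed from ETEC in the TL2937+ETEC culture and, at 6 of its 7 probes, was within 1.2-fold in the TL2766+ETEC culture. The brightest probe read 315 in TL2937+ETEC, 441 in TL2766+ETEC and 467 in ETEC, so that the TL2937+ETEC array stood apart from the other two. The log2 difference from ETEC was -0.57 for TL2937+ETEC and -0.08 for TL2766+ETEC, and TL2937+ETEC differed from TL2766+ETEC by -0.49. That spot was not located by the software's spot finder on the TL2937+ETEC array, one of 4669 such spots among 43803 there, but the probe at 1134, which shares 37 bases with it and was located on every array, gave -0.57 and -0.02. All 7 probes were lower in TL2937+ETEC than in ETEC, within -0.45 to -0.67. In TL2766+ETEC, 6 lay between -0.08 and 0.06, and the dimmest, at 250, was at -0.43 with readings of 31.5, 37.1 and 50.2 on the TL2937+ETEC, TL2766+ETEC and ETEC arrays.

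**Figure D4:**
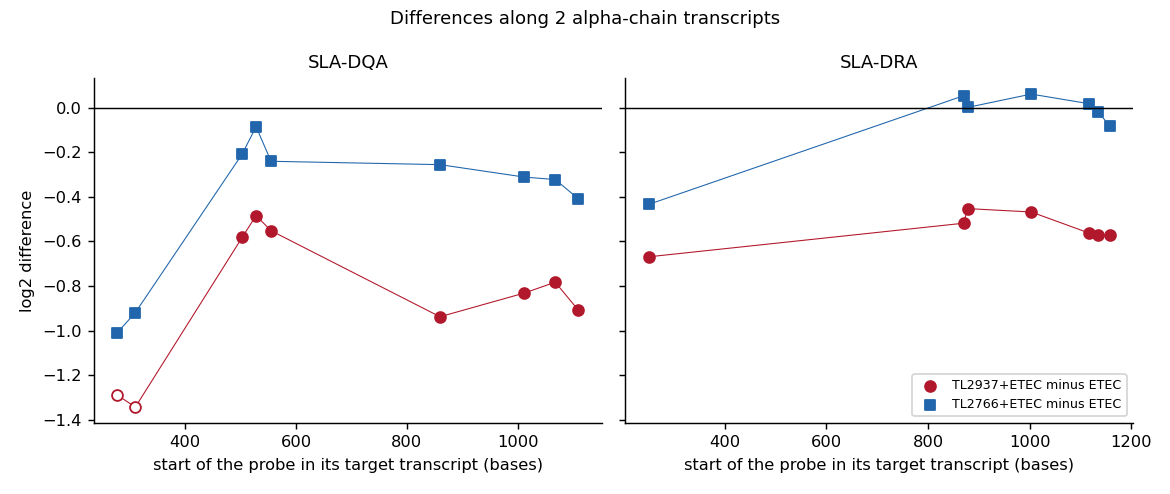
Log2 difference of the SLA-DQA (left) and SLA-DRA (right) probes against the start of the probe in its target transcript, for TL2937+ETEC minus ETEC (circles) and TL2766+ETEC minus ETEC (squares). Open symbols were not above background on both arrays. The SLA-DQA probes at 277 and 1110 have other target transcripts than the rest, so their places on the axis are not comparable. TL2937+ETEC lies below TL2766+ETEC at every probe of both genes, and the SLA-DRA squares from 870 on lie between -0.08 and 0.06.

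SLA-DRB1, the beta chain of DR, differed less than its partner. Its brightest probe, at 893, read 102 in TL2937+ETEC, 115 in TL2766+ETEC and 115 in ETEC, with differences from ETEC of -0.17 and -0.00. The spot finder did not locate that spot on the TL2766+ETEC array, nor the SLA-DQB1 spot at 850 there. The 4 probes ran from -0.17 to -0.37 in TL2937+ETEC, all below 0 and 1 past 1.2-fold. None of them exceeded 2 scanner errors in either comparison with ETEC. The overlapping pair did not match in TL2766+ETEC: the probe at 608 read 22.7, 34.6 and 26.2 on the TL2937+ETEC, TL2766+ETEC and ETEC arrays, and the probe at 630 read 23.2, 28.3 and 29.9. Their differences of TL2766+ETEC from ETEC were 0.40 and -0.08, although 38 of their bases are identical. The higher call for DR in TL2766+ETEC rests on the spot at 608 alone. Over both DR chains, 8 of 11 probes were lower in TL2937+ETEC than in ETEC, against 12.3% of all probes. In TL2766+ETEC, 1 was lower, 1 higher and 9 within 1.2-fold, against 10.6% of all probes lower and 9.79% higher.

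SLA-DMA and SLA-DMB encode the chains of DM, the peptide editor. All 4 of their probes were lower than in ETEC in both lactobacillus cultures, against 12.3% of all probes in TL2937+ETEC and 10.6% in TL2766+ETEC. With the normexp correction, 4 of 4 remained past 1.2-fold for TL2937+ETEC and 1 of 4 for TL2766+ETEC. No share of all probes was taken under that correction. SLA-DMA at 998 read 331 in TL2937+ETEC, 409 in TL2766+ETEC and 507 in ETEC, differences of -0.61 and -0.31 from ETEC. SLA-DMB at 1224 read 202, 244 and 294 on the same arrays, with differences of -0.54 and -0.27. In both genes TL2766+ETEC stood about midway between the other arrays. The second probe of each gene was dimmer and gave wider gaps. SLA-DMA at 355 read 29.1, 42.7 and 57.5, with differences of -0.98 and -0.43. SLA-DMB at 429 read 15.6, 35.3 and 46.8, with differences of -1.59 and -0.41, the one measured class II probe past 2-fold in TL2937+ETEC. The spot finder did not locate that spot on the TL2937+ETEC and ETEC arrays, and with another background correction (normexp) its difference for TL2937+ETEC was -0.43, so the size of this gap depends on the background.

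Of the DO chains, which restrain DM, the beta chain SLA-DOB was at or below the limit of the array, and the alpha chain was not measured. None of the 3 SLA-DOB probes was well above background in TL2937+ETEC or in ETEC. The probe at 1197 alone was above background in TL2766+ETEC, at 13.8, where the lowest detected signals on the arrays were 11.6 to 12.9. The probe at 199 also read 13.8 in ETEC without being above background, so no size of difference is given for SLA-DOB. SLA-DOA had no probe under the naming rule. A pair of probes named for the Src-like adaptor SLA on the array carries an accession that the RefSeq table gives to SLA-DOA, and their identity is in doubt. The probe at 1028 read 26.3, 28.1 and 34.5 and the probe at 1014 read 38.0, 34.5 and 36.8 on the TL2937+ETEC, TL2766+ETEC and ETEC arrays. Their differences of TL2937+ETEC from ETEC, -0.39 and 0.05, did not run the same way.

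CD74, the invariant chain, was within 1.2-fold of ETEC in both lactobacillus cultures at its brightest probe, as the presenting chain SLA-DRB1 was. The probe at 79 read 119 in TL2937+ETEC, 126 in TL2766+ETEC and 128 in ETEC, differences of -0.11 and -0.03 from ETEC. The probe at 434 read 52.0, 60.5 and 67.6 on the same arrays, with differences of -0.38 and -0.16. Neither exceeded 2 scanner errors. The order of the arrays was the same at both probes, and only the probe at 434 in TL2937+ETEC passed 1.2-fold.

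RFX5, the DNA-binding subunit of the RFX complex, had no common direction over its 3 probes. The probe at 383 read 121 in TL2937+ETEC, 148 in TL2766+ETEC and 154 in ETEC. The probe at 1217, with the CCNGGA run, read 129, 172 and 132, and the probe at 1774 read 58.9, 42.3 and 46.2 on the same arrays. For TL2937+ETEC against ETEC this gave -0.36, -0.04 and 0.35 in the order of their starts, and for TL2766+ETEC against ETEC -0.06, 0.37 and -0.13. TL2937+ETEC differed from TL2766+ETEC by -0.30, -0.41 and 0.48 at the same probes. The probe at 1217 was highest in TL2766+ETEC and the probe at 1774 in TL2937+ETEC, so no level of the gene can be given for either culture. The higher call for RFX5 in TL2766+ETEC against ETEC rests on the probe at 1217. So does its lower call in TL2937+ETEC against TL2766+ETEC, where the probe at 1774 went the other way. Whether the probes detect different transcripts was not tested.

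The other genes of the pathway were taken from a list of which 30 are reported here, 19 of them with a probe and 18 measured. In TL2937+ETEC against ETEC, 4 were lower, 2 were higher and 12 were within 1.2-fold, with a median of -0.14, beside 12.6% of all genes lower, 7.21% higher and a median of -0.04. In TL2766+ETEC against ETEC, 1 was lower, 0 were higher and 17 were within 1.2-fold, with a median of -0.06, beside 8.9% of all genes lower, 8.03% higher and a median of -0.00. In TL2937+ETEC against TL2766+ETEC, 1 was lower, 1 was higher and 16 were within 1.2-fold, with a median of -0.11, beside 7.28% of all genes lower, 4.32% higher and a median of -0.04.

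No probe was named for the coactivator CIITA, for the RFX subunits RFXANK and RFXAP or for the NF-Y subunits NFYA and NFYC. Of the factors that bind the class II promoter beside RFX, NFYB, a subunit of NF-Y, read 835, 932 and 1007 on the TL2937+ETEC, TL2766+ETEC and ETEC arrays, differences of -0.27 and -0.11 from ETEC. CREB1, the cyclic AMP response factor, read 485, 510 and 582, with differences of -0.26 and -0.19. Both were lowest in TL2937+ETEC, NFYB just past 1.2-fold and CREB1 just short of it. The 4 NFYB probes spanned -0.28 to 0.12 in TL2937+ETEC, so that gene's probes did not run the same way.

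On the interferon side, the 5 genes reported here were within 1.2-fold in all 3 comparisons. For TL2937+ETEC they were the receptor chains IFNGR1 (-0.14) and IFNGR2 (-0.13), the kinases JAK1 (-0.14) and JAK2 (-0.00), and the transcription factor IRF1 (-0.16). For TL2766+ETEC the values were -0.26 for IFNGR1, 0.10 for IFNGR2, -0.09 for JAK1, -0.02 for JAK2 and 0.04 for IRF1. Between TL2937+ETEC and TL2766+ETEC the differences were 0.12 for IFNGR1, -0.23 for IFNGR2, -0.05 for JAK1, 0.01 for JAK2 and -0.20 for IRF1.

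Among the processing, costimulation and turnover genes, the cysteine protease CTSZ differed most from ETEC. It read 143 in TL2937+ETEC, 164 in TL2766+ETEC and 231 in ETEC, differences of -0.70 and -0.50, from a single probe. IFI30, the thiol reductase that unfolds antigens in the lysosome, read 3782, 4951 and 5493, with differences of -0.54 and -0.15 from ETEC and -0.39 between the lactobacillus arrays. CD274, the inhibitory ligand PD-L1, was at -0.38 and -0.22. MARCH8, a ubiquitin ligase that sends class II molecules from the surface to degradation, read 331 in TL2937+ETEC, 266 in TL2766+ETEC and 273 in ETEC, differences of 0.28 and -0.04 from ETEC and 0.31 between the lactobacillus arrays. CTSH, a protease with aminopeptidase activity, was the other gene higher in TL2937+ETEC (0.27) and was at 0.22 in TL2766+ETEC. The costimulator CD86 was at -0.20 in TL2766+ETEC against ETEC, and CD40 and the protease CTSB were at -0.22 and -0.21 in TL2937+ETEC against TL2766+ETEC.

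**Figure D5:**
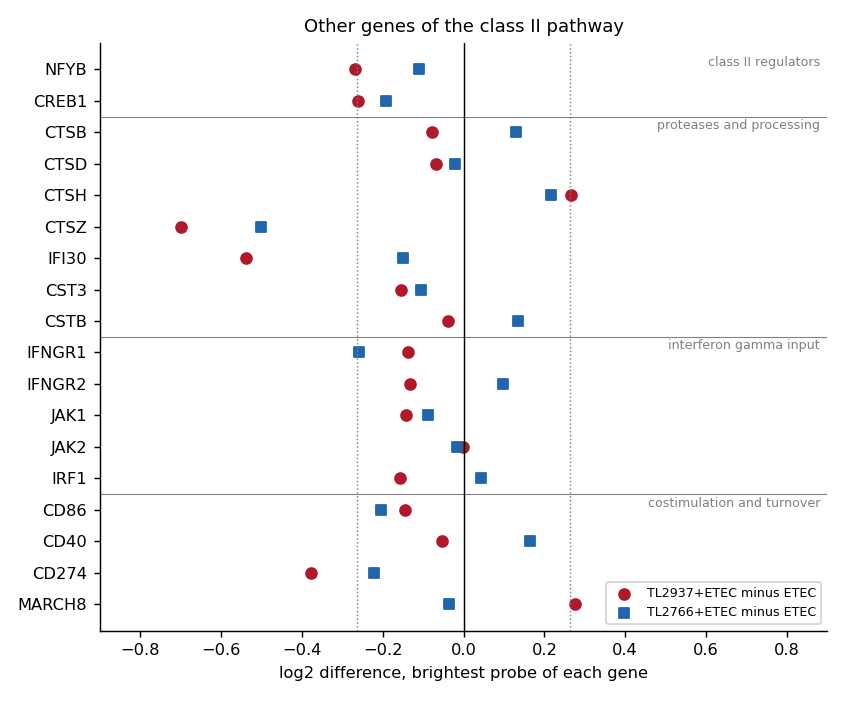
Log2 difference of the 18 measured genes of the pathway list, by group, for TL2937+ETEC minus ETEC (circles) and TL2766+ETEC minus ETEC (squares). Dotted lines mark 1.2-fold. CTSZ and IFI30 lie at -0.70 and -0.54 in TL2937+ETEC, and most other genes lie within the dotted lines.

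In the RefSeq gene order (assembly Sscrofa11.1, used for neighbours alone), the class II genes from SLA-DRA to SLA-DOA enclose TAP1 and TAP2, the peptide pump of MHC class I, PSMB8 and PSMB9, subunits of the immunoproteasome, and BRD2, a bromodomain protein. In TL2937+ETEC against ETEC the differences were -0.44 for TAP1, -0.44 for TAP2, -0.58 for PSMB8 and -0.50 for PSMB9, and in TL2766+ETEC they were -0.12, -0.18, -0.29 and -0.13 in the same order. BRD2 was at -0.05 in both. In TL2937+ETEC, BRD2 was nearer 0 than any of the class II chains measured, while in TL2766+ETEC it lay among them.

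The genes whose pattern lay nearest to the median of the class II members were sought among 2867 genes above background and above the median signal on all 3 arrays. Likeness was the distance between the pair of log2 differences from ETEC, TL2937+ETEC and TL2766+ETEC, and that of the members' median, over 3 arrays. The nearest were the guanylate-binding protein GBP1, at -0.53 and -0.15, the sugar transporter SLC2A6, at -0.54 and -0.14, PSMB9, the chemokine CXCL10, at -0.52 and -0.11, and the RNA sensor DDX58, at -0.57 and -0.14. Their distances ran from 0.016 to 0.053. With 3 arrays, such a ranking describes these cultures only.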

How the data were processed

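The arrays were 1-colour Agilent designs for the pig, 1 for each of 3 PIE cultures (TL2937+ETEC, TL2766+ETEC and ETEC), with 200 ng of RNA labelled with Cy3, per the labels' protocols. The deposited intensity of each spot is, per the file headers, the processed signal of Agilent Feature Extraction 10.7.3.1, and the authors' value table holds the same intensity, rounded (within 0.496%, on a linear uncentred scale, medians 37.7, 35.7 and 34.1). The scans share 1 date. Effects of the position on the slide cannot be told apart from those of the group.

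The log2 processed intensity minus the 75th percentile of each array was used. Control spots and outlier spots (9, 4 and 8) were left out, no spot was saturated, and spots of a probe were averaged. A scaled intensity is such a value taken off the log scale and multiplied by 481, the geometric mean of the arrays' 75th percentiles. A symbol was found for 12068 of 43603 probes, from the array's accessions through RefSeq's table of Sscrofa11.1, or else the array's name or a unique synonym. Members kept the array's name, except that the SLA-DQA probes at 277 and 1110 are named SLA-DQA1 on the array. The brightest probe stood for a gene. A probe above background on only 1 array of a comparison is described by its readings and was not counted as measured there. No genome coordinates are given, since the files name no build.

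The text names every member and probe, the regulators and interferon genes of the pathway list, the 4 other list genes that differed most in each comparison, and the 5 nearest genes by likeness. Of the list, CTSL was taken as having no probe, since its name differs between sources, and 1 further gene is not reported here and was left out of the counts. The members, lists, thresholds and rules were chosen with earlier results of these data known. Alternatives were a normexp background (offset 50), quantile, cyclic loess, median and detected-probe scaling, the authors' table, the mean of a gene's probes, outlier spots kept, other filters and folds of 1.5 and 2. The alternative that counts 2 probes in doubt as SLA-DOA was added after seeing the data. Steps were tested on simulated data. R 4.3.3 with limma 3.58.1 and Python 3.11.15 with pandas 2.3.3, numpy 2.4.6 and matplotlib 3.10.9 were used.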

Additional observations from a re-analysis of the deposited data

How the results depend on the processing

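The median difference of the class II members stayed below 0 under all 11 alternatives in each comparison: between -0.61 and -0.48 for TL2937+ETEC against ETEC, between -0.31 and -0.09 for TL2766+ETEC against ETEC and between -0.49 and -0.24 for TL2937+ETEC against TL2766+ETEC. The median of all genes lay between -0.056 and 0.009 over the settings that changed the signals or their scaling. It was not taken anew for the mean of a gene's probes, the other filters or the doubtful probes. Where only probes above the median signal were kept, 3 members were left (SLA-DQA, SLA-DRA and SLA-DMA), with medians of -0.31 for TL2766+ETEC against ETEC and -0.49 for TL2937+ETEC against TL2766+ETEC, and 3 were lower in TL2937+ETEC against ETEC and against TL2766+ETEC. The count of lower members at 1.5-fold was 2 for TL2937+ETEC against ETEC, 0 for TL2766+ETEC against ETEC and 0 for TL2937+ETEC against TL2766+ETEC. At 2-fold it was 0 in all 3 comparisons. Shares of all genes were taken at 1.2-fold and 2-fold in the main setting alone, so the other counts here have none beside them. With the normexp background, 3 members were lower between the lactobacillus arrays, and RFX5 in TL2766+ETEC against ETEC was at -0.070 instead of 0.37, because its brightest probe was then the one at 383. Taking the 75th percentile over the detected probes left 4 members lower between the lactobacillus arrays, where SLA-DQB1 and SLA-DMB (both at -0.23) lost the call, and 2 lower for TL2766+ETEC against ETEC, where SLA-DMB (-0.262) did. Counting the pair of doubtful probes as SLA-DOA moved the median for TL2766+ETEC against ETEC to -0.09, against -0.16 without them. Of 249 values of single genes under alternatives, 5 changed sign: RFX5 in 2, and SLA-DRB1 in TL2766+ETEC against ETEC, which lies at 0, in 3. No paired analysis was possible because each group had 1 array.

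Dim probes limit the detail: SLA-DOB could not be measured, the upstream SLA-DQA probes were not above background in TL2937+ETEC, and a gap at SLA-DMB start 429 shrank with the background correction. With 1 culture per group, differences between cultures of the same treatment could not be measured, and no difference here has a replicate check.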

Other observations

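A further 5 probes are described on the array as class II but belong to unnamed transcript contigs, and 4 of them were above background on no array. The fifth, described as similar to part of a macaque DR alpha chain, read 367 in TL2937+ETEC, 290 in TL2766+ETEC and 309 in ETEC. Its difference of TL2937+ETEC from ETEC was 0.25, against -0.45 to -0.67 at the 7 SLA-DRA probes, and that of TL2766+ETEC from ETEC was -0.09. It shared no run of 25 bases with a member probe, and which transcript it detects was not tested.

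Among the 5 endothelial markers, KDR and TEK differed from ETEC in the other direction from the class II genes. KDR, a receptor for vascular endothelial growth factor, read 798 in TL2937+ETEC, 753 in TL2766+ETEC and 532 in ETEC, and TEK, the angiopoietin receptor, read 2419, 2189 and 1340. Both were higher in the lactobacillus cultures than in ETEC, while PECAM1 and CDH5 were within 1.2-fold. VWF, the von Willebrand factor, went the other way in TL2937+ETEC, at 15.5 against 22.7 in ETEC, a log2 difference of -0.55, and was not above background in TL2766+ETEC.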
